A study of Mus musculus with 11 samples.

Results

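The genes described are 10 transcription factors of the cerebellar granule cell lineage, chosen by name and not by measured values, of 38924 genes counted in each RNA-Seq library. They are Atoh1, Barhl1, Barhl2, Pax6, Meis1, Meis2, Nhlh1, Nhlh2, Neurod1 and Insm1, listed from the precursor to the early postmitotic cell. All 10 were found in the files and all 10 were among the 16436 genes that had enough reads to be tested. RNA came from granule cell precursors (GCps) that the authors purified on a Percoll gradient from pooled, papain-digested cerebella of C57Bl/6J mice at postnatal day 7 (P7), after lobules IX and X had been cut away. The control group had 2 libraries with the genotype Chd7flox/+ in the sample labels, for which no Cre is listed, although the extraction notes give control pups with both alleles floxed. The cko group had 2 libraries, labeled Math1cre;Chd7flox/flox, from mice that lose the chromatin remodeler gene Chd7 in granule lineage cells. Math1 is the older name of Atoh1, so the cko libraries carry a Cre transgene under control of sequence from a gene described here, and the part of that transgene in the Atoh1 counts was not tested. The sources do not say whether the libraries of a genotype came from different animals. Sex-linked RNA, given with the depth of the libraries, shows that the cko libraries did, whereas for the control libraries the spread behind the p-values may be technical.

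Granule neurons arise from the rhombic lip, where the basic helix-loop-helix (bHLH) factor ATOH1 specifies the lineage and keeps precursors of the external granule layer dividing. The homeodomain factors BARHL1, BARHL2, PAX6 and MEIS1 act with it or after it, in precursors and in their progeny. MEIS2, the paralog of MEIS1, is listed with them. The bHLH factors NHLH1, NHLH2 and NEUROD1 and the zinc finger factor INSM1 are known from cells that leave or have just left the cell cycle. The comparison of cko with control asked whether the RNA of these factors depends on CHD7 in purified GCps.

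The libraries held 61836588 to 77346481 counts assigned to genes. Chd7 itself, counted over the whole gene, was at 322 and 319 CPM (reads scaled to a common library size with the trimmed mean of M values, TMM, as in all CPM given) in control replicates 1 and 2 and at 392 and 355 CPM in cko replicates 1 and 2 (log2 fold change 0.22, adjusted p = 0.418, edgeR). A count over the whole gene is no measure of the floxed part, so directions between genotypes rest on the labels. The libraries were not alike in the sex of the animals: Xist, the RNA of the inactive X chromosome, reached 793 CPM in cko replicate 1 and 0.548 CPM or less elsewhere, and the Y-linked gene Ddx3y had 0.00 CPM in cko replicate 1 and 63.7 to 69.1 CPM elsewhere. The cko libraries thus came from animals of different sex, and both control libraries held RNA of male cells. Proliferation markers had summed levels of 3205 to 3578 CPM in control and 4040 to 4115 CPM in cko libraries, and Zic1, a marker of the granule lineage, was at 1485 CPM or more in all of them. The Purkinje marker Pcp2 was at most at 0.196 CPM and the mature granule neuron marker Gabra6 at most at 0.104 CPM. Other markers in the same lists were higher, with Itpr1 (Purkinje) at 27.0 to 43.1 CPM and Cbln1 (mature granule) at 131 to 212 CPM. The Pcp2 count is uncertain, because 51.5% of its exonic length is shared with Pet100 on the other strand. Beside the proliferation markers and Zic1, the markers of early postmitotic granule cells Cntn2, Dcx, Tubb3 and Stmn2 were each at 488 CPM or more in every library. The RNA was thus not that of dividing precursors alone.

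Nhlh1 and its relative Nhlh2 are the pair in which the genotypes differed for the former and hardly for the latter. The bases before their start sites are shown because the lineage's bHLH factors bind E-boxes, DNA words of the form CANNTG. Atoh1 is shown beside them as the gene at the head of the lineage. The stretches come from RefSeq on GRCm38.p6, are written 5′ to 3′ on the strand of the gene, stop before the first start site given by RefSeq or GENCODE, and carry every CANNTG match in capitals. They span chr1:172057597-172057846 on the minus strand for Nhlh1, chr3:102009895-102010075 on the plus strand for Nhlh2 and chr6:64728875-64729124 on the plus strand for Atoh1.
Nhlh1: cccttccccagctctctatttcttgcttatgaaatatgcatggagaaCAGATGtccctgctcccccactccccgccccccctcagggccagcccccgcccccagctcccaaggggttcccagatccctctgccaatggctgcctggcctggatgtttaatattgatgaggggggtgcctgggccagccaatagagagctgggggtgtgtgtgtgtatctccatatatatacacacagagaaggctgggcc
Nhlh2: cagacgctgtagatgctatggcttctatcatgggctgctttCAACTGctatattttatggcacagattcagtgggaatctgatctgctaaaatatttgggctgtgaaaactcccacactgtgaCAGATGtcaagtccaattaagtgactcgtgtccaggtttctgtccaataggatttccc
Atoh1: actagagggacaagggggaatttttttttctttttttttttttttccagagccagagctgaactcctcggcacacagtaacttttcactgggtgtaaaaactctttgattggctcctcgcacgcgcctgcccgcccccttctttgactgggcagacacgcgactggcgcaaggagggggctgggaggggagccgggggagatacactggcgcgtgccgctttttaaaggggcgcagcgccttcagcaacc
The Nhlh1 stretch held 1 match, CAGATG, which began 203 bases before the RefSeq start. The Nhlh2 stretch held 2, CAACTG at 209 bases and CAGATG at 127 bases before the start, and the Atoh1 stretch held 0. CANNTG, which reads the same on both strands, occurred in 66.2% of 32851 RefSeq promoter windows of 250 bases, and at least 2 times in 31.8%. CAGATG or its reverse complement CATCTG, which are among the words that CANNTG covers, occurred in 14.4%. The Barhl1 windows each held 1 CAGCTG, which lay 99 and 15 bases before the respective start and which occurred in 13.0% of windows. Of CANNTG matches, the Barhl2 window held 2, those of Meis1 and Neurod1 1 each, that of Meis2 0, and the Pax6 windows 0 and 1. RefSeq promoters were matched for 9 of the 10 genes, all but Insm1. These matches are letters in a window and were not tested as binding sites.

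Of the 10 factors, Nhlh1 fell in the cko libraries (adjusted p under 0.05, quasi-likelihood test of edgeR), 0 rose and 9 did not pass. Of all 16436 tested genes 0.773% were called lower, 0.809% higher and 1.58% in either direction. Before adjustment, 4 of the 10 had a p under 0.05 (Nhlh1, Meis1, Pax6 and Neurod1, each with a negative log2 fold change), beside 13.6% of all tested genes. Both cko libraries lay below both control libraries for 5 of the 10 (Pax6, Meis1, Nhlh1, Neurod1 and Insm1), beside 21.2% of all tested genes, and above them for 1 (Barhl1), beside 22.7%. Together these were 6 of 10 factors without overlap, beside 43.9% of all tested genes. The log2 fold change was below 0 for 6 of the 10, beside 50.1% of all tested genes. The median log2 fold change of the 10 was -0.28, beside a median of all tested genes of -0.000565, and it was -0.14 without control replicate 1, -0.33 without control replicate 2, -0.28 without cko replicate 1 and -0.23 without cko replicate 2. With 2 libraries a genotype, the smallest p of an exact permutation test is 0.333, so single values have no test of their own beyond the fit across all genes.

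**Figure D1:**
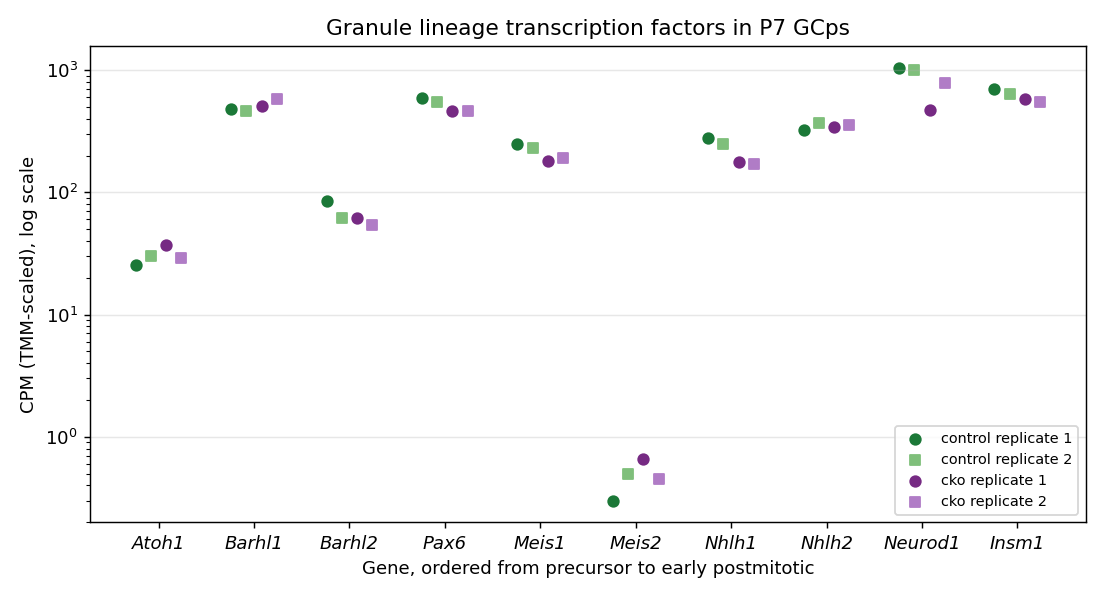
TMM-scaled CPM (vertical axis, log scale) of the 10 factors (horizontal axis, precursor to early postmitotic), with 1 point per library, green for control and purple for cko. Nhlh1 sits at 249 to 279.7 CPM in control and 172 to 178 CPM in cko libraries, the cko points of Neurod1 lie apart at 475 and 779.7 CPM, and Meis2 lies below 1 CPM throughout.

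Atoh1, the bHLH gene that starts the lineage, occupies chromosome 6, 64729125 to 64731245, of GRCm38 (mm10). It was at 25.6 and 30.1 CPM in control replicates 1 and 2 and at 37.0 and 29.1 CPM in cko replicates 1 and 2. The genotypes overlapped, since cko replicate 2 lay below control replicate 2 and cko replicate 1 lay above all others. The log2 fold change of 0.25 (standard error 0.15, 95% interval -0.12 to 0.61) had an adjusted p of 0.586 in the quasi-likelihood test of edgeR. It was 0.13 without control replicate 1, 0.37 without control replicate 2, 0.07 without cko replicate 1 and 0.41 without cko replicate 2, so its size moved with every library.

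Barhl1 and Barhl2 encode BarH-like homeodomain factors of the granule lineage. Barhl1 (chromosome 2, 28907679 to 28916668) was at 480.1 and 459.8 CPM in control and at 507 and 587 CPM in cko replicates 1 and 2. Both cko libraries lay above both control libraries, with a log2 fold change of 0.22 (standard error 0.11, 95% interval -0.05 to 0.49, adjusted p = 0.491 in the same test). It was 0.33 without cko replicate 1 and 0.11 without cko replicate 2. Barhl2 (chromosome 5, 106452523 to 106458166) was at 85.7 and 61.3 CPM in control and at 62.0 and 53.6 CPM in cko replicates 1 and 2. Its genotypes overlapped, because control replicate 2 matched the cko level and control replicate 1 stood higher. Barhl2 had a log2 fold change of -0.35 (standard error 0.17, 95% interval -0.77 to 0.07, adjusted p = 0.487 in the same test) and was -0.09 without control replicate 1. The paralogs thus had estimates of opposite sign, with both intervals including 0. Within a library, Barhl1 per kilobase of exon was 3.32 and 4.45 times Barhl2 in the control and 4.85 and 6.48 times Barhl2 in the cko replicates 1 and 2. The log2 of that ratio was 1.94 ± 0.30 in control and 2.49 ± 0.30 in cko libraries (SD, n = 2), and the ratio was higher in both cko libraries than in both control libraries, which an exact permutation test cannot place below its smallest p of 0.333.

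Pax6, a paired-box and homeodomain factor needed for granule cell migration and differentiation, lies on chromosome 2 from 105668900 to 105697364. It was at 589 and 552 CPM in control and at 459.6 and 468 CPM in cko replicates 1 and 2. The genotypes did not overlap, and the cko libraries differed from each other by less than the control libraries did. Its log2 fold change was -0.30 (standard error 0.10, 95% interval -0.54 to -0.06), with an unadjusted p of 0.0201 and an adjusted p of 0.239 in that test. The estimate ran from -0.35 to -0.25 over the 4 fits that left out a library.

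Meis1 and Meis2 encode homeodomain factors of the TALE class. Meis1 (chromosome 11, 18879817 to 19018985) was at 248 and 231 CPM in control and at 181 and 192 CPM in cko replicates 1 and 2. Every cko library lay below every control library. The log2 fold change of -0.36 (standard error 0.10, 95% interval -0.59 to -0.13) had an adjusted p of 0.143 in the same test, but Meis1 did pass in DESeq2 (adjusted p = 0.0228). Its values are uncertain to some degree, because 9.77% of its exonic length is shared with Gm37818 on the same strand and 8.51% with Gm16140 on the other. Meis2 (chromosome 2, 115863064 to 116065839) had 23 and 30 reads in control and 51 and 28 reads in cko replicates 1 and 2, or 0.300, 0.497, 0.661 and 0.455 CPM. Per kilobase of exon, Meis1 was 313 to 944 times as abundant as Meis2 in these libraries, so of these paralogs Meis1 was by far the more abundant in P7 GCps. The Meis2 genotypes overlapped (estimate 0.50 on the log2 scale, standard error 0.41, 95% interval -0.46 to 1.47, adjusted p = 0.694 in the same test), and no difference was detectable at this depth. The Meis2 estimate ran from 0.17 without control replicate 1 to 0.90 without control replicate 2 and was 0.13 with DESeq2's older prior.

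Nhlh1 encodes a short bHLH factor of newly born neurons and lies on chromosome 1 from 172052292 to 172057573. It was at 279.7 and 249 CPM in control and at 178 and 172 CPM in cko replicates 1 and 2. The genotypes were well apart, and the gap between them was wider than the spread within either. From 265 ± 21.4 CPM in control to 175 ± 4.83 CPM in cko libraries (SD, n = 2), Nhlh1 fell by 33.9%, a log2 fold change of -0.60 (standard error 0.10, 95% interval -0.84 to -0.36, adjusted p = 0.0467 in edgeR). It ranked 238 by p among the 16436 genes, of which 260 were called, and so stood close to the threshold. The call was lost without control replicate 1 (adjusted p = 0.237), without control replicate 2 (adjusted p = 0.131) and without cko replicate 1 (adjusted p = 0.0685), with log2 fold changes of -0.51, -0.68 and -0.62, and it was kept without cko replicate 2 (adjusted p = 0.0468). It was also lost without the robust option of the test (adjusted p = 0.0625), and it passed in DESeq2 and with edgeR's likelihood ratio test.

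Nhlh2, its paralog on chromosome 3 from 102010076 to 102015492, did not show that difference. It was at 327 and 369.8 CPM in control and at 341 and 358 CPM in cko replicates 1 and 2, with both cko values between the control values. The log2 fold change of 0.00 (0.0048, standard error 0.11, 95% interval -0.25 to 0.26, adjusted p = 0.992 in the same test) has a sign that flips with another scaling of the libraries (-0.00127 with DESeq2 size factors), and the interval excludes a change of 1.5-fold in either direction. Within a library, Nhlh1 per kilobase was 1.88 and 1.48 times Nhlh2 in control and 1.15 and 1.05 times Nhlh2 in cko replicates 1 and 2. On the log2 scale the ratio was 0.74 ± 0.24 in control and 0.14 ± 0.09 in cko libraries (SD, n = 2), lower in both cko libraries, at the smallest p of 0.333 that an exact permutation test can give. This ratio does not depend on how libraries are scaled to each other.

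Neurod1, a bHLH factor of granule neuron differentiation, lies on chromosome 2 from 79452521 to 79456751 and was the most abundant of the 10. It was at 1051 and 999 CPM in control and at 475 and 779.7 CPM in cko replicates 1 and 2. Both cko libraries lay below both control libraries, but they differed from each other far more than the control libraries did, with coefficients of variation of 34.3% and 3.56%. The log2 fold change of -0.71 was the largest in size of the 10, yet its standard error was 0.24 (95% interval -1.29 to -0.12) and its adjusted p 0.268 in edgeR. It was -0.38 without cko replicate 1 (adjusted p = 0.254) and -1.11 without cko replicate 2 (adjusted p = 0.00450), so the value turned on which cko library was kept. The lower of them, cko replicate 1, is the library with Xist RNA and no Ddx3y reads, and the part of sex in the Neurod1 level was not tested. DESeq2 called Neurod1 lower (adjusted p = 0.0211). Of its exonic length, 7.37% is shared with Cerkl on the same strand and 5.64% with Gm26755 on the other, which leaves some uncertainty in its values.

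Insm1 encodes a zinc finger repressor that marks neuronal cells as they leave the precursor state, and lies on chromosome 2 from 146221921 to 146225020. It was at 701 and 642 CPM in control and at 582 and 546 CPM in cko replicates 1 and 2. The genotypes did not overlap, although control replicate 2 and cko replicate 1 were close. Its log2 fold change was -0.25 (standard error 0.11, 95% interval -0.50 to 0.0015, adjusted p = 0.373 in the same test).

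**Figure D2:**
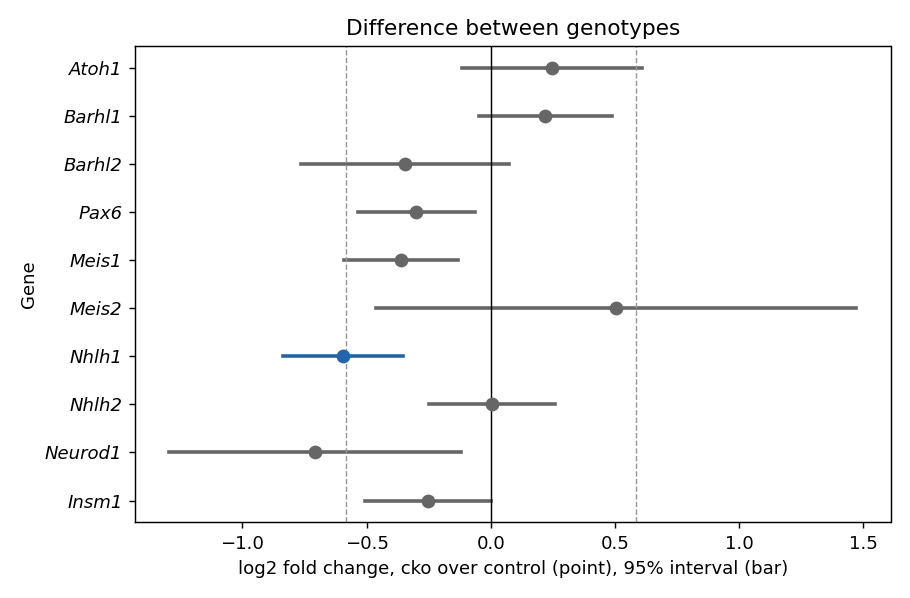
Log2 fold change of cko over control (horizontal axis, points) with its 95% interval from edgeR's quasi-likelihood fit (bars) for each of the 10 factors (vertical axis), blue where the adjusted p was under 0.05, with dashed lines at 1.5-fold. The interval of Nhlh1 runs from -0.84 to -0.36, that of Nhlh2 from -0.25 to 0.26, and those of Neurod1 and Meis2 are the widest.

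For 4 of the 9 factors that did not pass, the 95% interval lay wholly within 1.5-fold in either direction (Barhl1, Pax6, Nhlh2 and Insm1), as it did for 51.7% of all tested genes. The intervals of Atoh1, Barhl2, Meis1, Meis2 and Neurod1 reached past 1.5-fold on the side of their estimate, so a difference of that size was neither detected nor bounded out. Reads were not the limit outside Meis2, because each of the other 9 factors had at least 1789 reads in every library, a counting error of at most 2.36%. The coefficient of variation between libraries had a median of 7.13% over the 10 factors in control and 7.38% in cko libraries.

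**Figure D3:**
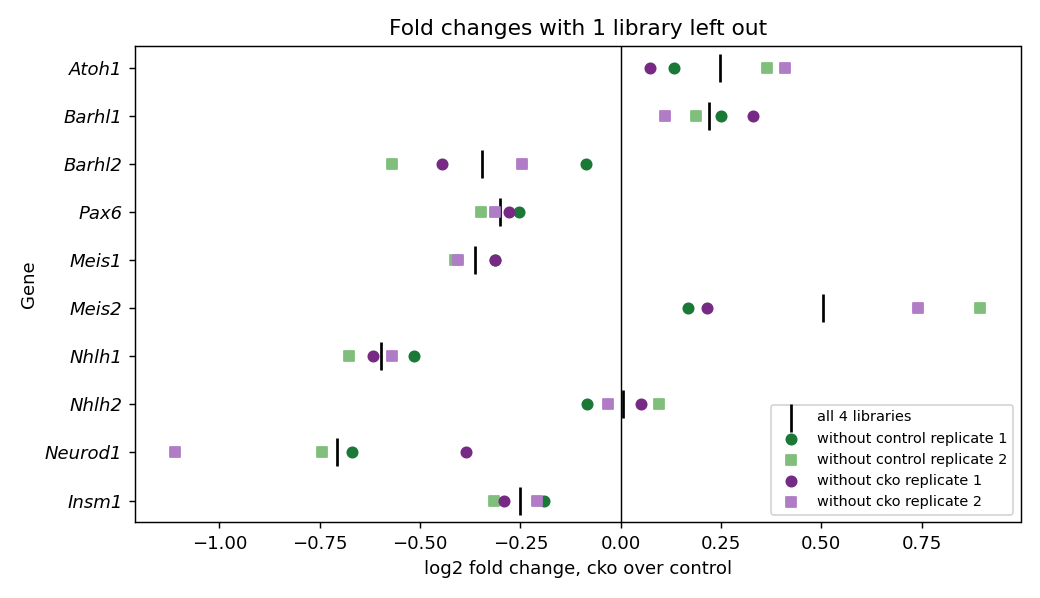
Log2 fold change of cko over control (horizontal axis) of the 10 factors (vertical axis), fitted on all 4 libraries (black bars) and with each library left out in turn (colored points). Nhlh1 stays between -0.68 and -0.51, whereas Neurod1 moves between -1.11 and -0.38 with the choice of cko library and Atoh1 between 0.07 and 0.41.

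Levels between genes were compared as CPM per kilobase of exonic length, taken over the merged exons of all annotated isoforms. The order depends on that length. In control GCps the order was Neurod1 (376 ± 13.4), Insm1 (217 ± 13.4), Barhl1 (120.3 ± 3.67), Nhlh1 (107 ± 8.67), Nhlh2 (64.3 ± 5.60), Pax6 (48.8 ± 2.25), Barhl2 (31.8 ± 7.47), Meis1 (22.7 ± 1.14), Atoh1 (13.1 ± 1.48) and Meis2 (0.0331 ± 0.0116), each as mean ± SD of 2 libraries. No neighbors in that order overlapped between the control libraries. Every factor but Meis2 stood above Atoh1, those known from early postmitotic cells as well as Barhl1, Pax6, Barhl2 and Meis1. Neurod1 was higher than 99.5% of 16236 tested genes with a known length. In cko GCps the order of the 10 was unchanged, but Neurod1 and Insm1 overlapped there (229.9 ± 78.9 and 182 ± 8.25 CPM per kilobase), as did Meis1 and Atoh1 (17.7 ± 0.712 and 15.6 ± 2.63). Nhlh1 and Nhlh2, well apart in control, were at 71.0 ± 1.96 and 64.5 ± 2.27 CPM per kilobase in cko libraries. Without division by length, Nhlh2 was the higher in both genotypes. Nhlh1 and Nhlh2 had mean levels of 265 and 348 CPM in control and 175 and 350 CPM in cko libraries. In control, Pax6 (571 CPM) then stood above Barhl1 (470 CPM).

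Ratios to Atoh1 within a library set 3 of the later factors, Neurod1, Nhlh1 and Insm1, against the one that heads the lineage. Nhlh2, also a later factor, was not set against Atoh1 here, and its own level overlapped between genotypes. Atoh1, the shared denominator, was highest in cko replicate 1, at 37.0 CPM. Neurod1 per kilobase was 31.9 and 25.8 times Atoh1 in control and 9.99 and 20.8 times Atoh1 in cko replicates 1 and 2. The ratio of Nhlh1 to Atoh1 was 9.39 and 7.14 in control and 4.15 and 5.08 in cko libraries, and that of Insm1 to Atoh1 was 18.7 and 14.6 in control and 10.8 and 12.8 in cko libraries. All 3 ratios were lower in both cko libraries than in both control libraries, by 0.99, 0.84 and 0.49 on the log2 scale for Neurod1, Nhlh1 and Insm1. Because they share the Atoh1 values, they are not 3 separate results. An exact permutation test cannot place any of them below its smallest p of 0.333. How many other genes were lower relative to Atoh1 was not counted. As bulk values these ratios cannot tell fewer cells of a type from less RNA per cell. Nhlh1 was also lower relative to Insm1, at 0.502 and 0.489 in control and 0.386 and 0.395 in cko libraries, with a spread within each genotype that was small beside the gap. Relative to Neurod1 it was at 0.295 and 0.277 in control and at 0.416 and 0.244 in cko replicates 1 and 2, where the genotypes overlapped.

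**Figure D4:**
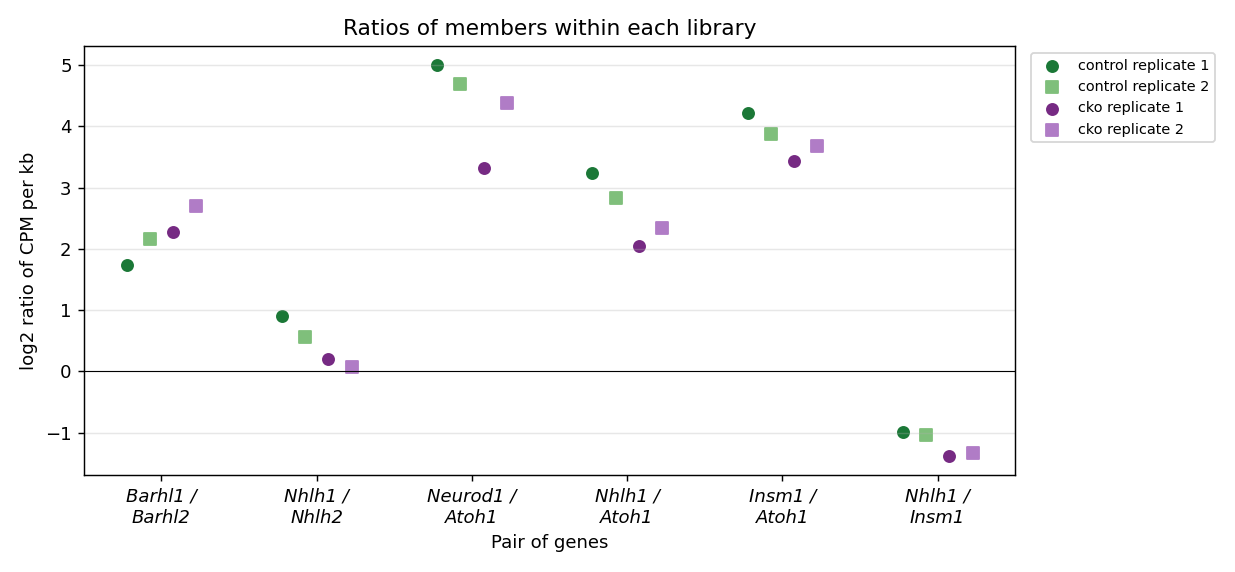
Log2 ratio of CPM per kilobase between 2 genes of the same library (vertical axis) for 6 pairs (horizontal axis), with 1 point per library. Ratios of Nhlh1 to Nhlh2 were 1.88 and 1.48 in control (green) and 1.15 and 1.05 in cko (purple) libraries. Neurod1, Nhlh1 and Insm1 were lower relative to Atoh1, their shared denominator, in both cko libraries.

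Other transcription factors were taken from 4 lists by role. Of 18 later neuronal factors, 3 fell and 15 did not pass, with a median log2 fold change of -0.17 (-0.10 without cko replicate 1). The quasi-likelihood test called 0.773% of all tested genes lower. An unadjusted p under 0.05 was found for 7 of the 18, beside 13.6% of all tested genes. Of those 7, Myt1l (log2 fold change 0.86) and Nfix (0.27) were higher and the others lower. DESeq2 and the likelihood ratio test each called 5 lower and 1, Myt1l, higher. Over all 16436 tested genes, DESeq2 called 428 lower and 453 higher, and the likelihood ratio test 311 lower and 364 higher. Neurod6, a bHLH relative of Neurod1, was at 37.0 and 52.3 CPM in control and at 5.65 and 8.98 CPM in cko replicates 1 and 2 (log2 fold change -2.61, standard error 0.29, adjusted p = 0.0325, edgeR). Insm2, the relative of Insm1, was at 10.9 and 17.2 CPM in control and at 4.50 and 4.06 CPM in cko replicates 1 and 2 (log2 fold change -1.71, standard error 0.24, adjusted p = 0.0348). St18, a zinc finger gene of the Myt1 family, was at 290.2 and 339.7 CPM in control and at 108 and 126 CPM in cko replicates 1 and 2 (log2 fold change -1.43, standard error 0.13, adjusted p = 0.00960). For all 3 genes the cko libraries were far below the control libraries. The Insm2 call was lost without control replicate 2 (adjusted p = 0.0736), without cko replicate 1 (0.0981) and without cko replicate 2 (0.0660), whereas Neurod6 and St18 passed with each library left out. The Neurod6 call was lost without a filter on low counts (adjusted p = 0.0527).

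Of 9 other granule precursor factors, 0 passed the quasi-likelihood test, 2 had an unadjusted p under 0.05 and 1, Gli2, passed in DESeq2, with edgeR's likelihood ratio test and without a filter on low counts. With the replicate block, Gli2 and Zic4 were called higher. The median log2 fold change of the 9 was 0.18, and it was 0.09 without control replicate 1, 0.28 without control replicate 2 and 0.07 without cko replicate 2. Zic1, the most abundant of them, was at 1707 and 1702 CPM in control and 1485 and 1652 CPM in cko replicates 1 and 2 (log2 fold change -0.12, adjusted p = 0.762). The effector of Hedgehog signaling Gli2 was at 119 and 137 CPM in control and 184 and 196 CPM in cko replicates 1 and 2 (log2 fold change 0.57, adjusted p = 0.0566). Of 11 bHLH partners and inhibitors, 0 passed the quasi-likelihood test, 2 had an unadjusted p under 0.05 and 1, Id2, passed in DESeq2 and without cko replicate 1. Their median of -0.05 ran from -0.18 without control replicate 1 to 0.00 (0.00348) without control replicate 2. The E protein gene Tcf4, whose product pairs with proneural bHLH factors, was their most abundant member, at 739 and 820.4 CPM in control and 885 and 983 CPM in cko replicates 1 and 2 (log2 fold change 0.26, adjusted p = 0.406). Of 9 TALE partners of Meis, 0 passed the quasi-likelihood test, 2 had an unadjusted p under 0.05 and 0 passed in DESeq2. With the replicate block, Meis3 was called lower. The median of the 9, 0.03, ran from -0.04 without control replicate 1 to 0.10 without cko replicate 1.

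**Figure D5:**
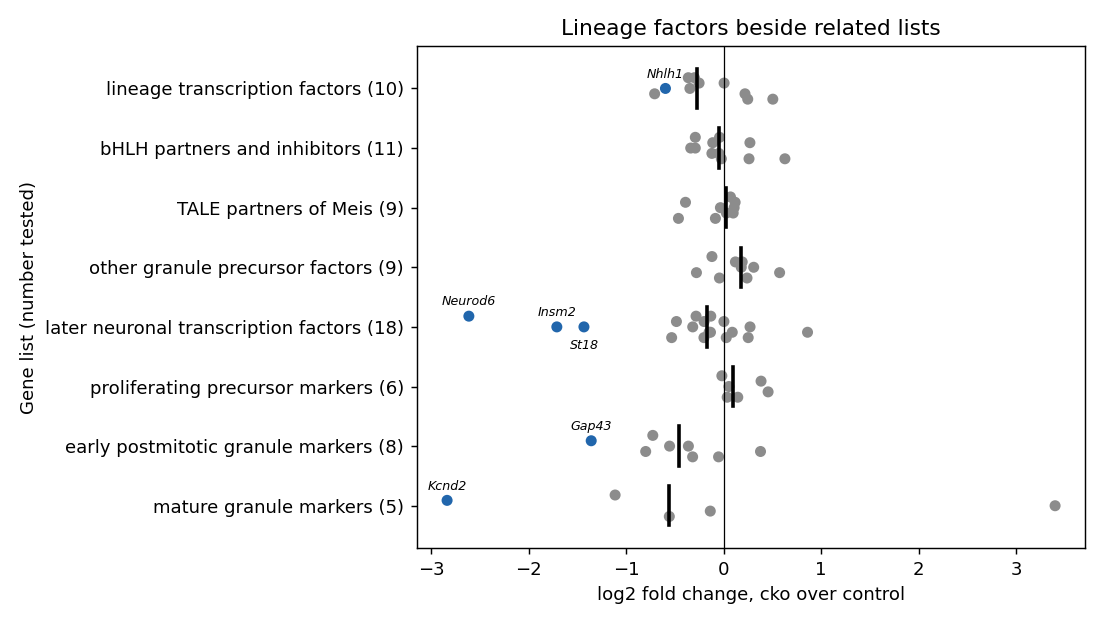
Log2 fold change of cko over control (horizontal axis) for the lineage factors, 4 lists of related transcription factors and 3 lists of stage markers (vertical axis, number tested in parentheses), with 1 point per gene, blue where lower at an adjusted p under 0.05, and black bars at list medians. The median is -0.28 for the lineage factors, 0.18 for other granule precursor factors, 0.10 for proliferating precursor markers and -0.46 for early postmitotic markers.

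Markers of the stages of the lineage and of other cells moved with genotype to differing degrees. Of 8 early postmitotic markers, Gap43 fell (log2 fold change -1.36, adjusted p = 0.0231) and 7 did not pass (median -0.46). An unadjusted p under 0.05 was found for 7 of the 8, beside 13.6% of all tested genes. Of those 7, Dcc was higher (log2 fold change 0.38) and the others lower. DESeq2 called 4 lower (Gap43, Nrcam, Stmn2 and Tubb3). Over all 16436 tested genes, DESeq2 called 428 lower and 453 higher, and the likelihood ratio test 311 lower and 364 higher. The summed level of the 8 was 5901 to 6196 CPM in control and 4131 and 4938 CPM in cko replicates 1 and 2. It was lower in cko replicate 1, the library in which Neurod1 was lowest. Of 6 proliferating precursor markers, 0 passed the quasi-likelihood test and 2 had an unadjusted p under 0.05. Only 1, Ccnd2, passed in DESeq2, without a filter on low counts and with the replicate block. The median of the 6, 0.10, ran from 0.03 without control replicate 1 to 0.22 without control replicate 2. Of 5 tested mature granule markers 1, Kcnd2, fell, with summed levels of 287 to 323 CPM in control and 177 to 209.6 CPM in cko libraries. Endothelial markers summed to 206 to 241 CPM in control and 322 to 328 CPM in cko libraries (of 6 genes, 0 passed the quasi-likelihood test, 6 had an unadjusted p under 0.05, 4 were higher in DESeq2 and 3 in the likelihood ratio test), and skeletal muscle markers to 5.62 to 7.69 and 28.9 to 62.7 CPM (3 of 7 higher). Sums were 67.4 to 78.6 and 89.8 to 90.5 CPM for inhibitory interneuron markers, 38.3 to 39.6 and 48.9 to 54.5 CPM for Purkinje markers, 329 to 362 and 394 to 413 CPM for oligodendrocyte lineage markers, where Olig2 rose, and 873 to 939 and 735 to 753 CPM for astroglia markers. They overlapped between genotypes for unipolar brush cell (81.1 to 83.9 and 71.4 to 83.9 CPM), microglia (163 to 193 and 193 to 196 CPM) and meningeal fibroblast markers (29.7 to 43.5 and 27.8 to 34.9 CPM). The Gap43 call held with each library left out, whereas that of Kcnd2 was lost without control replicate 1 (adjusted p = 0.0652) and without control replicate 2 (0.0732). Olig2 passed with cko replicate 2 left out and with no other library left out, and the muscle markers called higher were 2 without control replicate 1, 0 without control replicate 2 and 7 without cko replicate 1 and also without cko replicate 2. The early postmitotic median was -0.28 without cko replicate 1 and -0.65 without cko replicate 2. No marker was at 0 in all 4 libraries, and the part of these cells and stages in the levels of the 10 factors was not tested.

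The genes whose pattern was nearest to a factor were taken as the 5 with the smallest Euclidean distance in centered log2 CPM over the 4 libraries. For Nhlh1 they were B3gnt7 (distance 0.04), B9d1 (0.05), Myl6 (0.06), C2cd4b (0.06) and Actl6b (0.07). Among them Myl6, a myosin light chain gene, fell from 315 and 274 CPM in control to 191 and 192 CPM in cko replicates 1 and 2 (log2 fold change -0.62, adjusted p = 0.0465), while B9d1 (adjusted p = 0.0914), Actl6b (0.0628), B3gnt7 (0.548) and C2cd4b (0.652) did not pass. For Atoh1 they were Prob1 (distance 0.02), Srpk3 (0.03), Mtif2 (0.03), Zfp566 (0.03) and Sgms2 (0.05), with adjusted p between 0.520 and 0.841. With 4 libraries and 16436 genes such likeness is a description of these libraries.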

How the data were processed

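RNA-Seq of purified GCps was analyzed in 2 control and 2 cko libraries. ATAC-Seq and H3K4me1 ChIP-Seq samples were not analyzed here. The deposited values are raw counts per Ensembl gene, whole and not normalized. The submitters' processing notes list Trim Galore 0.4.1. Reads were aligned to mm10 with TopHat2 2.0.14 and counted for Ensembl 75 genes with HTSeq 0.6.1p1 in intersection-strict mode, which drops reads shared by overlapping genes. Alignments of quality below 3 were skipped. None of the sources used here gives the strand setting of the counting, so genes with overlapping exons are uncertain.

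Names, coordinates and exonic lengths came from GENCODE vM21 (GRCm38, the assembly of mm10) for 37607 of 38924 identifiers. Genes kept by filterByExpr were scaled by TMM and tested with edgeR 4.0.16 in R 4.3.3 (quasi-likelihood test, robust, Benjamini-Hochberg over 16436 genes, threshold 0.05). A standard error is the size of the log2 fold change divided by the square root of F, and intervals use the test's degrees of freedom. DESeq2 1.42.0, other filters and scalings, a replicate block and leaving out each library were alternatives. The steps were tested on simulated counts, where 22.1% of genes changed 1.5-fold and 67.1% of those changed 2-fold were called. A factor that did not pass may thus still have changed by such an amount. Log2 CPM for pattern distances used a prior count of 2. Replicates differed by far more than sampling noise (chi-square per degree of freedom 50.5 for control and 94.1 for cko). Intervals of counts cover counting error only.

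The factors and lists were chosen with earlier results of these data known. Named were all 10 factors, the 5 nearest patterns of Nhlh1 and Atoh1, and in each of the 4 related lists the genes that passed or, where none passed, the most abundant, of which 1 is not reported here. Gli2, Zic4, Id2, Meis3, Myt1l, Nfix and named markers were singled out after their values were seen.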

Additional observations from a re-analysis of the deposited data

How the results depend on the processing

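The count of lineage factors called was 1 and was kept with DESeq2 size factors, without a filter on low counts, with at least 1 CPM in at least 2 libraries and with the likelihood ratio test. It was 3 in DESeq2 (Nhlh1, Meis1 and Neurod1), 3 in DESeq2 with its older prior, 2 with the replicate block (Nhlh1 and Meis1, adjusted p = 0.0331 for Meis1), 0 without the robust option (adjusted p = 0.0625 for Nhlh1) and 0 to 2 with a library left out. Over all genes the count of 260 was 727 without a filter, 675 with the likelihood ratio test, 881 in DESeq2, 869 with its older prior, 1010 with the replicate block and 115 to 712 with a library left out (115 without control replicate 2, 712 without cko replicate 2). Of 119 values of single factors, 103 kept their direction and side of the threshold, 6 passed only under the alternative, 4 (all Nhlh1) lost their call and 6 (all Nhlh2) turned sign, at -0.00127 with DESeq2 size factors, -0.000469 without a filter, -0.00125 in DESeq2, -0.00115 with its older prior, -0.0835 without control replicate 1 and -0.0325 without cko replicate 2. With a library left out, Nhlh2 ran from -0.0835 to 0.0956. The cause was not tested. The replicate block also ended the call of the marker Kcnd2 (adjusted p = 0.0679) and called 4 early postmitotic markers. Control 1 and cko 1 deviated together from their group means (correlation over genes 0.19). Mitochondrial genes held 2.14% and 1.86% of counts in control and cko replicate 1, and 3.41% and 3.80% in control and cko replicate 2. With no stated batch, 2 shared numbers do not make a pairing, and a batch was not tested. A lone library of a genotype is assumed to vary like the other genotype. Depth limits Meis2 alone.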

Other observations

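A few genes of the stage and neuronal lists were chosen after their values were seen. Grin2c, an NMDA receptor subunit gene of mature granule neurons, was at 1.10 and 2.59 CPM in control and at 23.0 and 15.5 CPM in cko replicates 1 and 2 (log2 fold change 3.40, adjusted p = 0.0566, edgeR), in libraries where Gabra6, another receptor gene of mature granule neurons, was at most at 0.104 CPM. Myt1l, a zinc finger gene of postmitotic neurons, was at 52.2 and 38.6 CPM in control and at 93.3 and 71.6 CPM in cko replicates 1 and 2 (log2 fold change 0.86, adjusted p = 0.107), whereas its family member Myt1 was at 265 and 254 CPM in control and 174 and 184 CPM in cko replicates 1 and 2 (log2 fold change -0.53, adjusted p = 0.0512). The netrin receptor gene Dcc was at 129 and 156 CPM in control and 196 and 174 CPM in cko replicates 1 and 2 (log2 fold change 0.38, adjusted p = 0.232). None of these 4 passed the quasi-likelihood test on all libraries with the settings used throughout. Each had an unadjusted p under 0.05, and both DESeq2 and edgeR's likelihood ratio test called Grin2c and Myt1l higher and Myt1 lower. The quasi-likelihood test itself called Myt1 without a filter, with the 1 CPM filter and with the replicate block. It called Myt1l with the replicate block and Grin2c without the robust option. With a library left out, it called Myt1 without cko replicate 2 and Grin2c without either control replicate. It called Myt1l without control replicate 1 and without cko replicate 2. In each of the 4 the genotypes did not overlap, as for 43.9% of all tested genes.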
